A study of Homo sapiens with 8 samples.

Results

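RNA levels of 60 genes of the secretory machinery were examined in SW480, a human colorectal adenocarcinoma cell line. The genes were chosen by symbol, for their place in protein entry into the endoplasmic reticulum (ER), signal peptide removal, N-glycosylation and transport between ER and Golgi. All 60 were found among the 58735 genes counted, each under a single symbol. A minimum count left 59 of them among 15790 genes tested. TUSC3 alone was too low. The study compared cells carrying SPOCK1 with a flag tag, 4 libraries, with cells carrying the vector alone, 4 libraries. Both kinds of cell were infected with lentivirus and selected with puromycin, and the batch label is the same throughout. SPOCK1 encodes testican-1, a proteoglycan that cells release into the matrix around them. The labels name no clone, passage or separate culture for any library, so the p-values rest on differences among libraries of a group that may be technical only, and any other difference between the infected groups cannot be told apart from SPOCK1 itself. In such bulk RNA, fewer cells of a kind and less RNA per cell cannot be told apart either.

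Proteins that leave the cell or sit in its membranes begin their route at the ER. The signal recognition particle binds the signal peptide as it leaves the ribosome and docks at its receptor, and the chain passes through the SEC61 channel with its partners. Signal peptidase then cuts the signal off, and oligosaccharyltransferase adds N-glycans to the growing chain. COPII-coated vesicles carry cargo from ER to Golgi, and COPI-coated vesicles bring escaped ER residents and cargo receptors back. In secretory cells many of these genes are known targets of the unfolded protein response, which acts through the transcription factors XBP1, ATF6 and ATF4.

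The libraries carried what their labels say. The SPOCK1 gene itself was counted 6, 0, 3 and 6 times in the controls, in order of library number, against 6719, 7828, 9712 and 8964 times in cells given the SPOCK1 construct. Totals were 35643585 to 42812951 counts, and the 60 genes together took 0.817% to 0.899% of them. The 7 epithelial markers checked (EPCAM, KRT8, KRT18, KRT19, CDH1, VIL1 and CDX2) were present in every library. Levels are given as CPM, the usual count measure scaled to library size, and the lowest of these markers stood at 9.79 CPM. Not all were level between the groups. CDH1, the adhesion protein E-cadherin, fell from 17.8 ± 1.29 to 11.2 ± 1.21 CPM (SD, n = 4 each), or by 0.67 ± 0.11 on the log2 scale (SE, edgeR adjusted p = 0.00537). VIL1 also lay below every control with SPOCK1, at -0.27 ± 0.09, without passing (edgeR adjusted p = 0.197), and the other 5 markers overlapped. The part of these markers in the results was not tested. The 14 markers of blood, fibroblast and endothelial cells summed to 3.10 to 4.90 CPM in controls and 3.28 to 4.04 CPM with SPOCK1, and DCN, CDH5 and KDR were at 0 throughout. Ribosomal RNA took 0.697% to 0.738% of control counts and 0.560% to 0.671% of SPOCK1 counts, without overlap, and its part in the results was not tested. A trend with GC content set the libraries numbered 1 and 3 in either group apart from those numbered 2 and 4. GC-rich genes lay -0.27 to -0.13 from GC-poor genes on the log2 scale in the former and 0.03 to 0.26 in the latter.

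With SPOCK1 a single gene of the 59 tested passed the test. SSR3, a subunit of the translocon-associated protein complex, rose 1.24-fold, and 0 genes fell. Genes were called at an adjusted p under 0.05 in edgeR's quasi-likelihood test. The background is 1.04% of all tested genes called, 0.247% higher and 0.798% lower. Most of the other values leaned upward by small amounts. Log2 fold changes were positive in 50 of 59, against 49.2% of all genes tested, and their median was 0.14 against -0.0042 for all genes. They ran from -0.17 (SEC24B) to 0.50 (SEC11C), with standard errors of 0.07 to 0.15. The 95% intervals of 58 of the 59 genes lay within a 1.5-fold change in either direction, SEC11C being the exception at 1.17-fold to 1.71-fold. Before adjustment, 18 genes had p under 0.05 with a positive value and 0 with a negative value, where the background is 5.49% and 8.17% of all genes.

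Every SPOCK1 library stood above every control in 11 of the 59 genes, where the background is 3.43%, and below in 0, where it is 4.8%. These 11 were SRP68, SRPRB, SSR3, RPN1, DDOST, SEC13, SEC23B, SEC24D, TMED10, KDELR2 and COPG1. They come from 8 of the 10 classes described here. Genes move together within a library, so these shares describe the set and are no test of it. The count of genes called higher depended on the fit. It was 2 with RLE factors (background 0.26%) and with a filter at a mean of 1 CPM (0.303%), and the second gene was SRPRB in both. It was 4 with DESeq2 (0.665%) and with no filter beyond 1 count (0.457%), where SEC11C and RPN1 were added. It was 0 with upper-quartile factors (0.247%), with replicate numbers as a block (0.196%), in libraries 2 and 4 alone (0.29%) and in libraries 1 and 3 alone, where 0.00618% of all genes were called higher. With 1 library left out it was 0 in 6 of the 8 fits (0.149% to 0.212%). It was 1, SSR3, without control library 1 (0.168%) and 2, SSR3 and SEC11C, without SPOCK1 library 4 (0.409%).

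**Figure D1:**
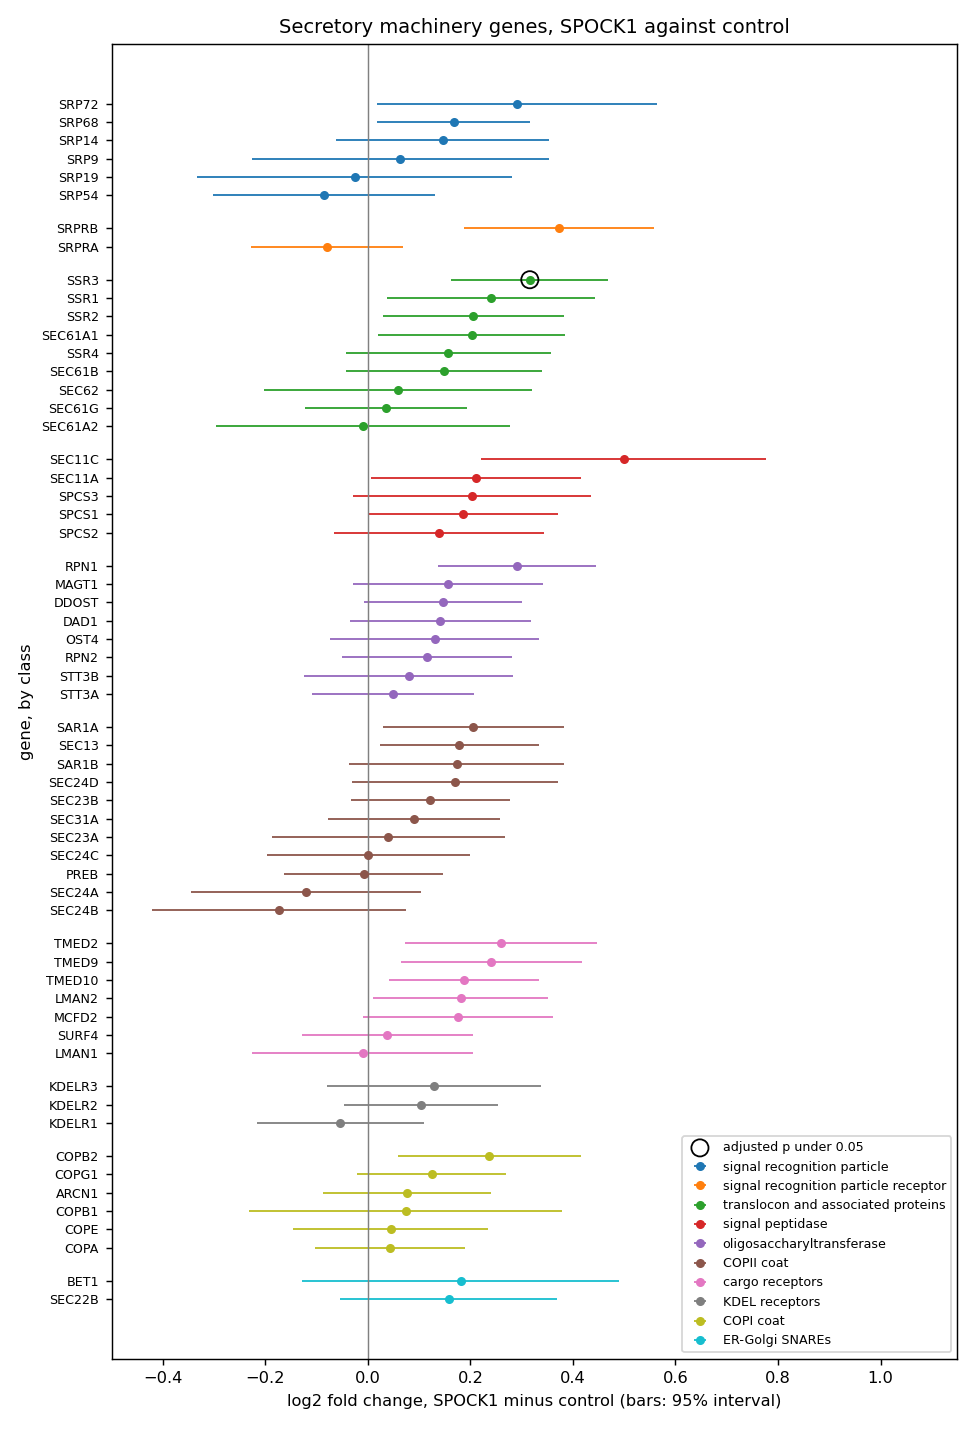
Log2 fold change of each of the 59 tested genes (x axis, SPOCK1 minus control, bars 95% intervals) by class (y axis, colours). The ring marks SSR3 at 0.32, the 1 gene past an adjusted p of 0.05, and 50 of 59 points lie right of 0.

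The libraries did not share the highest values evenly. SPOCK1 library 1 was the highest of the 8 libraries in 32 of 59 genes, SPOCK1 library 4 in 10, control library 1 in 6 and each of the others in 5 or fewer. Control library 1 was the lowest in 17 genes, control library 3 in 13 and control library 2 in 10. The median deviation of the 59 genes from their own mean was 0.17 on the log2 scale in SPOCK1 library 1, 0.0049 to 0.07 in the other SPOCK1 libraries, and -0.09 to -0.06 in controls. Without SPOCK1 library 1 the median log2 fold change was 0.10, and 48 of 59 values stayed positive.

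**Figure D2:**
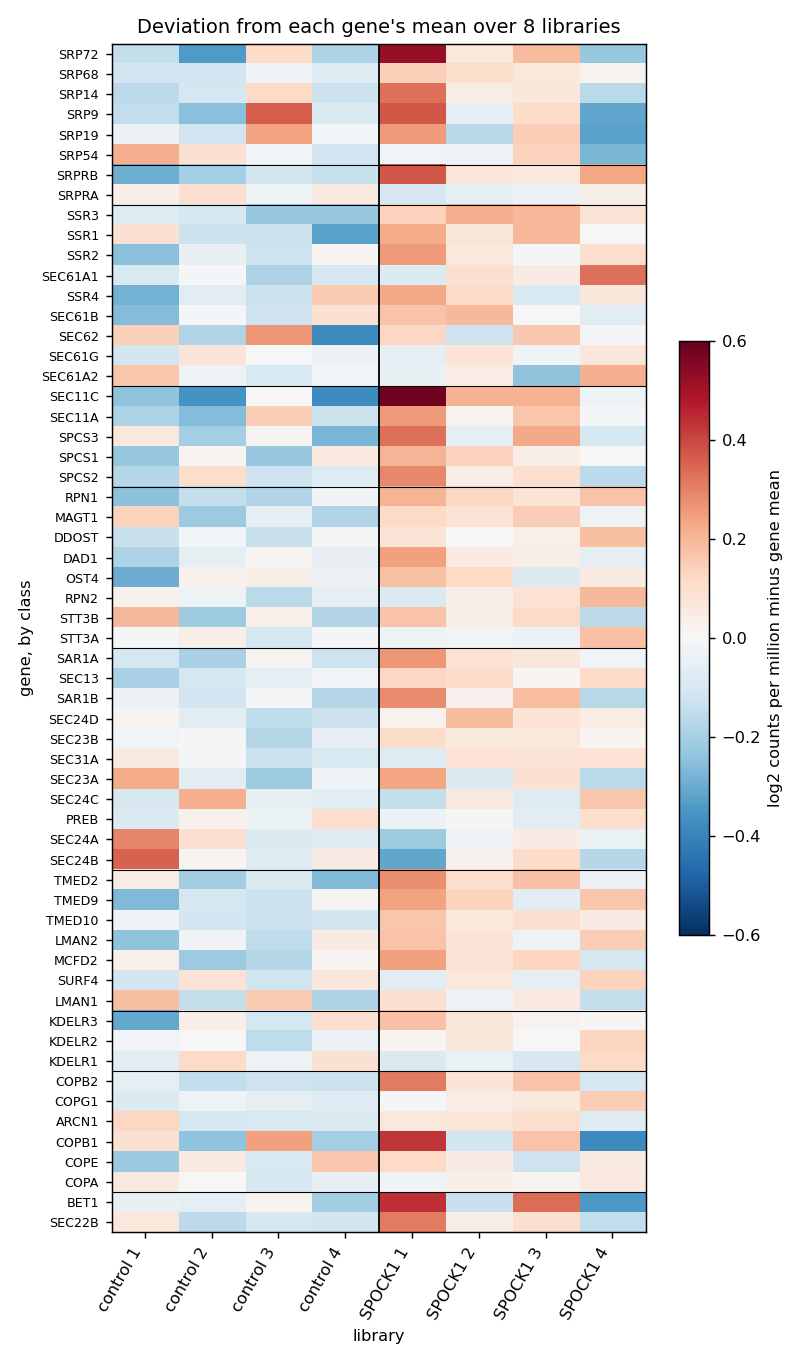
Deviation of each gene's log2 CPM from its mean over the 8 libraries (colour scale), with genes in rows by class and libraries in columns. SPOCK1 library 1 holds the highest value in 32 of 59 rows, and the controls, left of the line, are mostly below the mean.

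The signal recognition particle had 6 tested protein genes, and 0 passed the test. SRP68, which with SRP72 forms the largest protein pair of the particle, had the smallest p. It stood at 128.1, 128.0, 136.1 and 131.3 CPM in control libraries 1 to 4 and at 153.1, 149.3, 144.8 and 140.7 CPM in SPOCK1 libraries 1 to 4. All SPOCK1 values lay above the controls, yet the log2 fold change of 0.17 ± 0.07 (SE) missed the threshold (edgeR adjusted p = 0.311). SRP72 was at 95.01, 82.9, 113.3 and 92.2 CPM in controls and 150.7, 109.4, 119.6 and 89.4 CPM with SPOCK1. Its groups overlapped, and its value of 0.29 ± 0.13 leaned on SPOCK1 library 1. SRP14 and SRP9, which together bind the Alu end of the particle's RNA, had 0.15 ± 0.10 and 0.06 ± 0.14. SRP54, the GTPase that holds the signal peptide, had -0.08 ± 0.10, and SRP19, needed to assemble the particle, had -0.03 ± 0.15. SRP19 overlaps REEP5, whose CPM was 1650% of its own, and if counting ignored strand their reads cannot be separated.

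The subunits of the receptor lay apart. SRPRB, the membrane anchor, stood at 62.6, 66.5, 71.0 and 69.9 CPM in controls and at 99.3, 80.5, 80.0 and 90.1 CPM with SPOCK1. No SPOCK1 library fell into the control range, and its log2 fold change of 0.37 ± 0.09 (SE) stayed just outside the threshold (edgeR adjusted p = 0.0516). SRPRB overlaps RAB6B on the other strand, at 14.1% of its CPM, so part of their reads may be exchanged if strand was ignored. SRPRA, the GTPase that contacts the particle, was at 188.6 ± 6.65 CPM in controls and 178.5 ± 6.91 CPM with SPOCK1 (SD, n = 4 each), and its log2 fold change was -0.08 ± 0.07. The difference between the subunits was not tested.

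The translocon class had 9 tested genes, 1 of which rose and 8 of which did not pass. SSR3 (ENSG00000114850, chromosome 3, 156540140 to 156555184, minus strand, GRCh38) had 220.5, 216.2, 198.7 and 198.9 CPM in control libraries 1 to 4. In SPOCK1 libraries 1 to 4 it had 255.6, 270.6, 266.6 and 245.7 CPM. The groups did not overlap, and the closest pair, SPOCK1 library 4 and control library 1, was parted by more than the SD of either group. The control mean was 208.6 ± 11.4 CPM and the SPOCK1 mean 259.6 ± 11.2 CPM (SD, n = 4). On the log2 scale SSR3 rose by 0.32 ± 0.07 (SE, edgeR adjusted p = 0.0465). That call is marginal. It was kept without control library 1 or SPOCK1 library 4 and lost without any of the other 6 libraries, at adjusted p of 0.0564 to 0.218. It was also lost with upper-quartile factors (adjusted p = 0.0532) and when replicate numbers were fitted as a block (adjusted p = 0.0750). Its size moved little, from 0.26 to 0.34 over all settings, and it was 0.32 in libraries 1 and 3 alone and 0.31 in libraries 2 and 4 alone.

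The other subunits of the same complex had values on the same side. SSR1 was at 0.24 ± 0.10, SSR2 at 0.21 ± 0.08 and SSR4 at 0.16 ± 0.09 on the log2 scale, with adjusted p of 0.294, 0.300 and 0.489. SEC61A1, the channel itself, was at 386.2, 408.1, 362.1 and 384.0 CPM in controls and 388.9, 439.5, 426.1 and 518.2 CPM with SPOCK1. Its highest value was in SPOCK1 library 4, and its groups overlapped (log2 fold change 0.20 ± 0.09, edgeR adjusted p = 0.318). It overlaps RUVBL1 on the other strand. The small subunits SEC61B and SEC61G had 0.15 ± 0.09 and 0.04 ± 0.07. SEC62, which serves post-translational entry, had 0.06 ± 0.12, and SEC61A2, the minor paralog of the channel, had -0.01 ± 0.14. It overlaps NUDT5 on the other strand, whose CPM was 899% of its own, so its level, its fold change and its ratio to SEC61A1 are uncertain if strand was ignored.

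**Figure D3:**
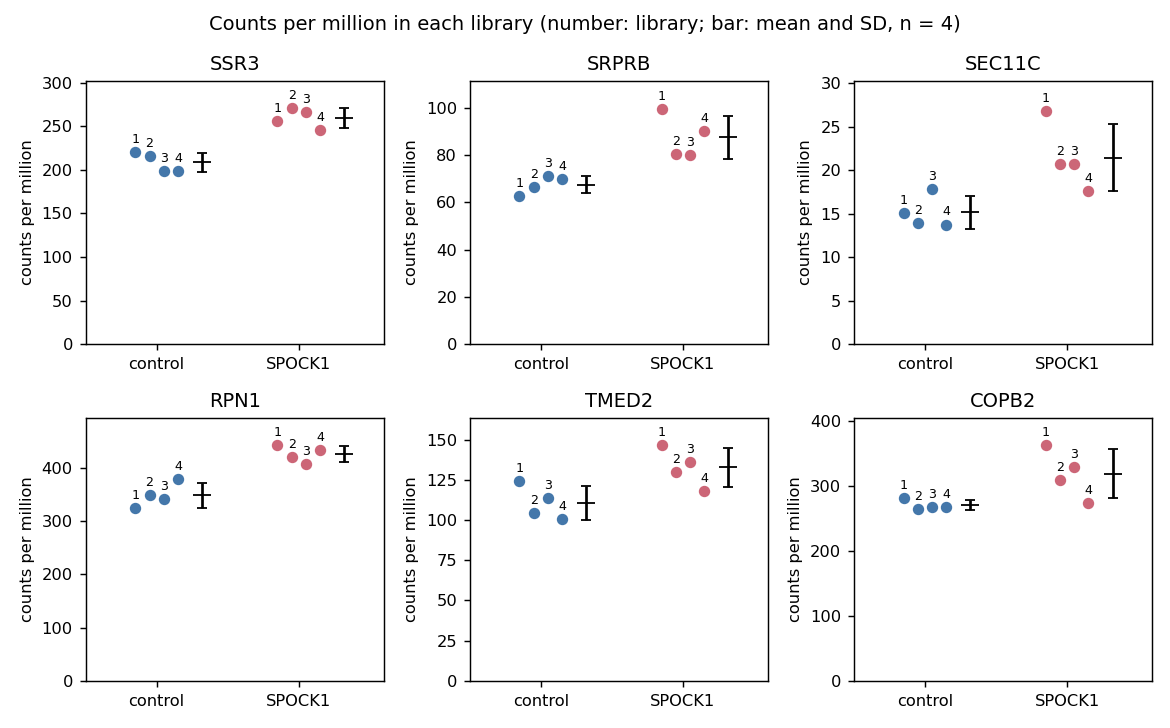
CPM (y axis, from 0) of 6 genes in each library (points, numbered by library) for control and SPOCK1, with mean and SD (n = 4) beside them. SSR3, SRPRB and RPN1 do not overlap between the groups, while SEC11C, TMED2 and COPB2 do.

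Signal peptidase had 5 tested genes, all with positive values and 0 past the test. SEC11C, a catalytic subunit, had the largest log2 fold change of the 59 genes. It stood at 15.1, 13.96, 17.9 and 13.8 CPM in controls and at 26.9, 20.7, 20.7 and 17.6 CPM with SPOCK1. SPOCK1 library 4 lay just below control library 3, and SPOCK1 library 1 far above the rest (log2 fold change 0.50 ± 0.13, SE, edgeR adjusted p = 0.0870). Without SPOCK1 library 4 SEC11C passed, at 0.58 and an edgeR adjusted p of 0.0340. It did not pass without any of the other 7 libraries, at adjusted p of 0.0527 to 0.250, and without SPOCK1 library 1 its value was 0.37 (adjusted p = 0.201). Its paralog SEC11A, the other catalytic subunit, was the more abundant per length, at 12.52 against 3.37 CPM per kilobase in controls. SEC11A had a log2 fold change of 0.21 ± 0.10. The non-catalytic subunits SPCS1, SPCS2 and SPCS3 had 0.19 ± 0.09, 0.14 ± 0.10 and 0.20 ± 0.11.

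Oligosaccharyltransferase had 8 tested genes, again all with positive values and 0 past the test. RPN1, ribophorin I, was at 324.1, 348.9, 340.9 and 379.3 CPM in controls and 443.2, 420.1, 407.8 and 433.3 CPM with SPOCK1. Its groups were fully apart, with a log2 fold change of 0.29 ± 0.07 (SE, edgeR adjusted p = 0.0747). DDOST, another non-catalytic subunit, also did not overlap between groups, at 239.1 ± 11.5 and 264.5 ± 14.4 CPM (SD, n = 4 each), or 0.15 ± 0.07 on the log2 scale. RPN2, DAD1 and OST4 had 0.12 ± 0.08, 0.14 ± 0.08 and 0.13 ± 0.10. OST4 overlaps AGBL5 on the other strand, at 172% of its CPM. The catalytic subunits had the smallest values, with 0.05 ± 0.08 for STT3A, which glycosylates chains during entry, and 0.08 ± 0.10 for STT3B, which also acts after it. MAGT1, the oxidoreductase partner of STT3B, had 0.16 ± 0.09. Its paralog TUSC3 had 1, 0, 0 and 1 counts in controls and 5, 6, 0 and 0 with SPOCK1, where a count of 0 allows up to 0.0693 to 0.0855 CPM for counting error alone. TUSC3 was not tested in the main fit. With no filter beyond 1 count it was tested and not called. MAGT1 was at 89.3 ± 10.3 CPM in controls (SD, n = 4).

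The COPII coat had 11 tested genes, 8 with positive values, 3 with negative values and 0 past the test. SAR1A, the GTPase that starts coat assembly, had the smallest p. It was at 77.0, 72.3, 83.8 and 76.1 CPM in controls and 99.7, 87.9, 86.9 and 82.0 CPM with SPOCK1, where SPOCK1 library 4 fell below control library 3 (log2 fold change 0.21 ± 0.08, SE, edgeR adjusted p = 0.298). SAR1B, its paralog, which is needed for the export of large lipoprotein particles, had 0.17 ± 0.10. SEC13 of the outer coat had 0.18 ± 0.07 and did not overlap between groups, and its partner SEC31A had 0.09 ± 0.08. SEC23B had 0.12 ± 0.07 and its paralog SEC23A 0.04 ± 0.11. The cargo-binding SEC24 proteins ran from -0.17 ± 0.12 for SEC24B and -0.12 ± 0.11 for SEC24A through 0.00095 ± 0.09 for SEC24C to 0.17 ± 0.10 for SEC24D. SEC24D, the least abundant of the 4 per length at 1.99 CPM per kilobase in controls, was at 21.1, 19.9, 18.8 and 19.1 CPM in controls and 21.2, 23.9, 22.2 and 21.6 CPM with SPOCK1. The groups touched almost at 21.1 and 21.2 CPM. SEC24A overlaps SAR1B at their shared start, so part of their reads may be exchanged if strand was ignored. PREB, the exchange factor of SAR1, had -0.01 ± 0.07.

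Cargo receptors had 7 tested genes and 0 past the test, with 6 positive values. The p24 proteins TMED2, TMED9 and TMED10, which sort cargo such as GPI-anchored proteins, had 0.26 ± 0.09, 0.24 ± 0.08 and 0.19 ± 0.07 on the log2 scale. TMED2 stood at 124.4, 104.5, 113.6 and 100.5 CPM in controls and 146.4, 129.9, 136.3 and 118.0 CPM with SPOCK1, with only SPOCK1 library 4 inside the control range (edgeR adjusted p = 0.204). TMED10 did not overlap, at 265.1 ± 8.99 and 302.0 ± 11.1 CPM (SD, n = 4 each, edgeR adjusted p = 0.245). The lectins LMAN2 and LMAN1 had 0.18 ± 0.08 and -0.01 ± 0.10. MCFD2, the partner of LMAN1 in coagulation factor export, had 0.18 ± 0.09, and SURF4, the receptor for many soluble cargoes, 0.04 ± 0.08.

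KDEL receptors, which fetch escaped ER residents back from the Golgi, had 3 tested genes and 0 past the test. KDELR1, the most abundant per length, was at 328.0, 372.0, 335.9 and 365.5 CPM in controls and 323.1, 334.1, 320.7 and 372.4 CPM with SPOCK1, an overlapping pattern with a log2 fold change of -0.05 ± 0.08. KDELR2 was at 252.5, 255.1, 229.6 and 249.8 CPM in controls and 257.8, 267.8, 255.5 and 279.4 CPM with SPOCK1. SPOCK1 library 3 and control library 2 were 255.5 and 255.1 CPM, so the groups were apart by a hair (log2 fold change 0.10 ± 0.07, edgeR adjusted p = 0.551). KDELR3, the scarcest, had 0.13 ± 0.10, and it overlaps DDX17, whose CPM was 610% of its own. In libraries 2 and 4 alone the KDELR3 value was -0.03.

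The COPI coat had 6 tested genes, all with positive values and 0 past the test. COPB2, the beta-prime subunit, was at 281.8, 263.9, 268.2 and 267.8 CPM in controls and 363.3, 308.7, 329.5 and 273.3 CPM with SPOCK1. The controls were close together, and SPOCK1 library 4 lay within their range (log2 fold change 0.24 ± 0.08, SE, edgeR adjusted p = 0.228). COPB2 overlaps MRPS22 on the other strand, at 33.7% of its CPM. COPG1 did not overlap between groups, at 213.3 ± 3.42 and 232.5 ± 10.6 CPM (SD, n = 4 each), or 0.12 ± 0.07 on the log2 scale. COPA, COPB1, COPE and ARCN1 had 0.04 to 0.08. The SNAREs SEC22B and BET1, which drive fusion between ER and Golgi membranes, had 0.16 ± 0.10 and 0.18 ± 0.15, with BET1 at 26.0 and 24.2 CPM in SPOCK1 libraries 1 and 3 and 17.5 and 15.1 CPM in libraries 2 and 4.

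The GC trend runs through these values. The longest transcripts of the 59 genes had a median GC content of 44.4%, against 49.4% for all genes tested. In 24 of the 59 genes the gap between libraries 1 and 3 and libraries 2 and 4 was larger than the gap between SPOCK1 and control. The median log2 fold change was 0.18 in libraries 1 and 3 alone and 0.09 in libraries 2 and 4 alone, with 50 and 45 positive values. With offsets for GC content and length in each library it was 0.10, 49 values stayed positive and 7 genes were called higher, where the background is 1.3%, while 0 were called lower (background 1.88%). The 7 were SSR3, SSR1, SRPRB, SEC11C, RPN1, LMAN2 and TMED9, with fold changes of 1.20, 1.20, 1.26, 1.36, 1.21, 1.16 and 1.19 and edgeR adjusted p of 0.0489, 0.0314, 0.0185, 0.0170, 0.0079, 0.0380 and 0.0280.

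Levels differed far more between genes than between groups. In controls, CPM per kilobase of merged exons ran from 0.818 for SRP19 to 155.6 for KDELR1 among the 59 genes. Subunits of the same complex were not at equal levels. In the SEC61 channel SEC61A1, SEC61B and SEC61G had 82.0 ± 4.00, 80.8 ± 8.35 and 63.2 ± 3.38 CPM per kilobase, whereas SEC61A2 had 1.80 ± 0.15 (SD, n = 4). In oligosaccharyltransferase RPN2 and DAD1 had 113.7 ± 6.22 and 105.2 ± 5.95, and the catalytic STT3B and STT3A 48.0 ± 6.42 and 24.4 ± 1.00. COPI subunits spanned 16.7 (COPB1) to 52.6 (ARCN1). The COPII coat was lower, with SEC23B at 22.8, SEC31A at 7.80 and SEC24D at 1.99, although PREB had 69.4. Merged exons include those of rare transcripts, which lowers such values for genes with long annotated models such as SRP19 and SAR1B.

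**Figure D4:**
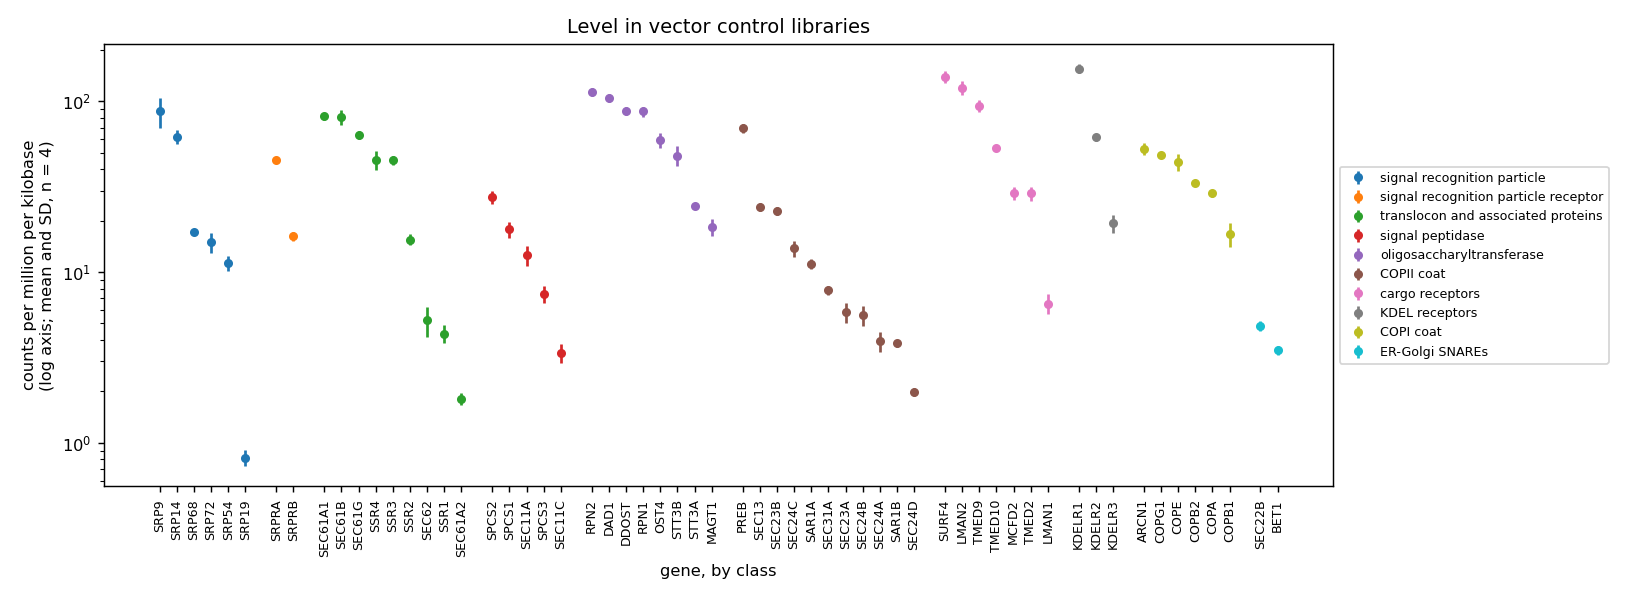
Level of each of the 59 tested genes in vector controls (y axis, CPM per kilobase of merged exons, log axis, mean and SD of 4 libraries) by class (x axis, colours). Levels run from 0.818 for SRP19 to 155.6 for KDELR1.

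Whether paralogs moved apart was tested on the log2 ratio of their counts within each library. Of 12 pairs listed, 11 could be computed, and 0 passed after adjustment (exact two-sided permutation test over 4 against 4 libraries, Benjamini-Hochberg over the pairs). The smallest p this design allows is 0.0286, and 1 pair had it before adjustment. At least 7 of the 11 pairs would have to reach it together to pass, and a lone pair there has an adjusted p of 0.314, so the count of 0 says little. That pair was SEC11A to SEC11C, at 2.16, 2.21, 2.26 and 2.35 in controls and 1.77, 1.92, 2.06 and 2.12 with SPOCK1. All SPOCK1 ratios lay below all controls, a mean difference of -0.27 (exact permutation p = 0.0286, adjusted p = 0.209). KDELR1 to KDELR2 differed by -0.16 and SEC61A1 to SEC61A2 by 0.21 (exact permutation p = 0.0571 and adjusted p = 0.209 for both). SAR1A to SAR1B, STT3A to STT3B and KDELR2 to KDELR3 differed by 0.04, -0.04 and -0.03, with exact permutation p of 0.571, 0.914 and 0.8.

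**Figure D5:**
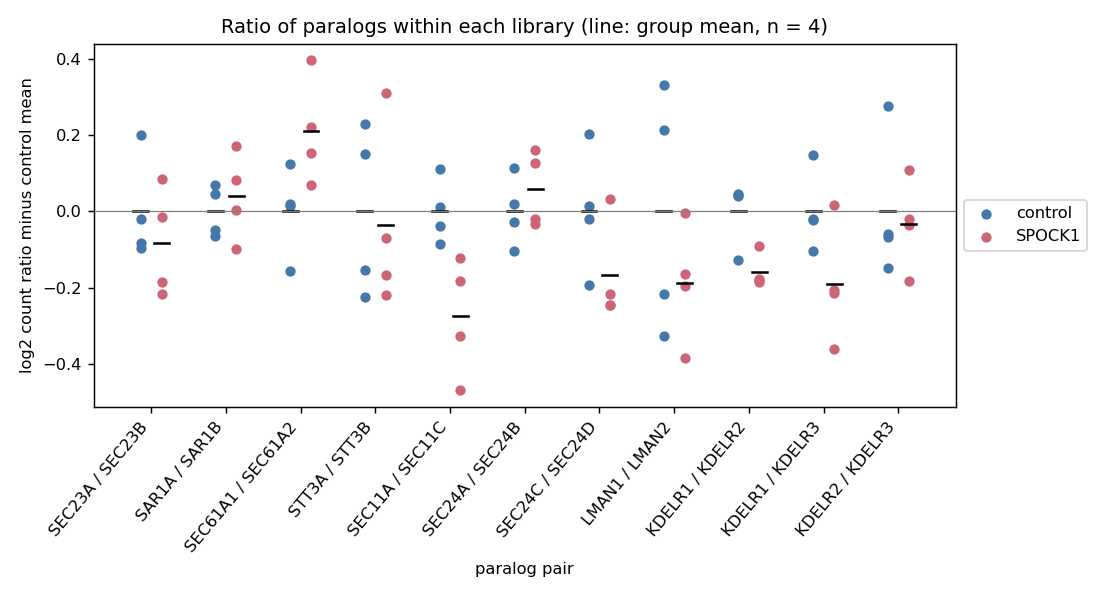
Log2 ratio of the counts of 2 paralogs in each library, minus the mean of the controls (y axis), for 11 pairs (x axis), with lines at the group means (n = 4). The SPOCK1 points of SEC11A to SEC11C lie below all control points, and the other pairs overlap.

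Other genes of the same route gave 0 calls. Of 109 genes listed by role, 106 were tested, and 0 rose or fell (edgeR quasi-likelihood test, background 0.247% and 0.798%), also with DESeq2 and limma-voom. Before adjustment 10 had p under 0.05, all with positive values. The background is 5.49% of all genes with a positive value and 8.17% with a negative value. Positive values made up 81 of 106, against 49.2% of all genes tested, and the median was 0.07, against -0.0042 for all genes. Leaving out SPOCK1 library 1 gave a median of 0.04. The groups did not overlap in 8 genes, all higher with SPOCK1, which is 7.55% against the background of 3.43%. TMEM208, which takes part in a route into the ER that needs no signal recognition particle, was at 35.1 ± 2.19 and 42.8 ± 4.15 CPM (SD, n = 4 each), or 0.28 ± 0.09 on the log2 scale (edgeR adjusted p = 0.190). OSTC, a subunit of the STT3A complex, had 0.35 ± 0.12 (edgeR adjusted p = 0.213), and GORASP2, a Golgi stacking protein, 0.20 ± 0.07 (edgeR adjusted p = 0.212). TMEM258 and KRTCAP2, also oligosaccharyltransferase subunits, had 0.07 ± 0.10 and -0.72 ± 0.40 (edgeR adjusted p = 0.798 and 0.453). KRTCAP2 had few counts, at 0.908 ± 0.335 and 0.553 ± 0.244 CPM (SD, n = 4 each). The 106 values ran from -0.72 for KRTCAP2 to 0.35 for OSTC. By role, the median was 0.13 for the 23 genes of lipid-linked oligosaccharide synthesis, 0.11 for 10 other translocation genes, 0.10 for 10 genes of the ER membrane complex, 0.07 for 11 other COPI genes and 0.03 for 16 other cargo receptors. The 6 glucosidase and glycan quality control genes had a median of -0.07, with 5 negative values. With the GC content and length offsets 1 of the 106 rose, where the background is 1.3% of all genes called higher. That gene was SGTA, a chaperone of tail-anchored proteins (log2 fold change 0.21 ± 0.05, edgeR adjusted p = 0.0365).

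Promoter sequences were searched because many genes of this route are textbook targets of the unfolded protein response. RefSeq promoter windows (GRCh38.p14, 250 bases before to 50 bases after a start) were listed for 52 of the 60 genes. The letters TGACGTGG, known as the unfolded protein response element and bound by XBP1 and ATF6, stood on either strand in at least 1 window of 10 of the 52 genes, or 19.2%. Over all genes in the table the share was 0.927%, and over the 10755 genes matched to those tested here 1.21%. The longer ER stress elements, ERSE (CCAAT, then CCACG at a fixed distance) and ERSE-II (ATTGG, then CCACG after 1 base), stood in 0 of the 52. Their shares were 0.0916% and 0.0696% of all genes, and 0.149% and 0.13% of the genes matched to those tested. The short CCACG, which overlaps TGACGTGG on its other strand, stood in 78.8% of the 52 genes. Its share was 57.2% of the genes matched to those tested and 42.1% of all genes. The stretches that hold the element are printed 5′ to 3′ on the strand of the gene, with the match in capitals, as TGACGTGG or its reverse complement CCACGTCA. They are shown so that the element can be read beside the fold changes. A match with fewer than 30 bases before it or 14 after it in its window was not printed.
SRP19, chr5:112861145-112861196, plus strand: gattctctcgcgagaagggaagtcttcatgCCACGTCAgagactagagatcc
SEC62, chr3:169966760-169966811, plus strand: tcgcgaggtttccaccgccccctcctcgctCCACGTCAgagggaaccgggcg
SSR3, chr3:156554145-156554196, minus strand: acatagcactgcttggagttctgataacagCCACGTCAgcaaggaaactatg
SSR4, chrX:153794509-153794560, plus strand: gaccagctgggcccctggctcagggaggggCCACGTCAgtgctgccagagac
SEC23A, chr14:39103218-39103269, minus strand: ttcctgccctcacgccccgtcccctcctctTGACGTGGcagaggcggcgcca
SEC24A, chr5:134648576-134648627, plus strand: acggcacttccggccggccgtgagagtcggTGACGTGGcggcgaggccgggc
KDELR3, chr22:38468020-38468071, plus strand: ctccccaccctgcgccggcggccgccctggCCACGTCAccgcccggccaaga
COPA, chr1:160343224-160343275, minus strand: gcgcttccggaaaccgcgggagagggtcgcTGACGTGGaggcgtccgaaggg
COPB1, chr11:14499838-14499889, minus strand: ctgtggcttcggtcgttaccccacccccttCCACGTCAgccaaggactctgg
COPB2, chr3:139389629-139389680, minus strand: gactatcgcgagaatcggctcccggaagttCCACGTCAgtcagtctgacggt
COPB2, chr3:139389822-139389873, minus strand: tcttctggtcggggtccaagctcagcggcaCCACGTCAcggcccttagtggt

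The 10 genes with the element had log2 fold changes of -0.12 to 0.32 with a median of 0.07, and the other 42 had -0.17 to 0.50 with a median of 0.15. The ends of the first range are SEC24A and SSR3, and those of the second are SEC24B and SEC11C. The difference between the medians was not tested. SRPRA, SPCS1, STT3B, RPN1, TUSC3, SEC24D, TMED9 and KDELR2 had no window listed and are in neither range. Their values, without TUSC3, ran from -0.08 for SRPRA to 0.29 for RPN1. COPB2, with 0.24, is the 1 gene with 2 printed matches. SSR4 had 0.16, KDELR3 0.13, COPB1 0.07, SEC62 0.06, COPA and SEC23A 0.04 each, and SRP19 -0.03. The SSR3 match belongs to a start listed inside the gene, with its stretch at 156554145 to 156554196 and the deposited 5′ end at 156555184. The SEC23A and SSR4 matches also lie well inside their genes. SEC23A has its stretch at 39103218 to 39103269, with the deposited 5′ end at 39109646. SSR4 has its stretch at 153794509 to 153794560, with the deposited 5′ end at 153793516. Of the starts listed for SSR3, the nearest to the deposited 5′ end of the gene lies 67 bases from it. The window of that start held no TGACGTGG, 1 CCACG and 2 CCAAT in the 250 bases before the start. These bases are printed as the promoter of the gene that passed the test, with those matches in capitals.
SSR3, chr3:156555118-156555367, minus strand: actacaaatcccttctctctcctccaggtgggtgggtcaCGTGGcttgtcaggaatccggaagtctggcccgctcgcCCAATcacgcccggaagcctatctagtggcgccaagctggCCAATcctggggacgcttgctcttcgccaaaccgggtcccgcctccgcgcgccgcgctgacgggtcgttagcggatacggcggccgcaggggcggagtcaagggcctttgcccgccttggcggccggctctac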

How the data were processed

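The authors deposited raw counts of reads for each gene in each library. The tools listed are featureCounts 1.5.0-p3, HISAT2 2.0.5 and CASAVA, per the submitters' processing notes. The sources used here do not give the build, the strand setting or the treatment of reads that match more than 1 gene. Start, end and strand of all 58735 genes were identical to GENCODE release 29 (GRCh38), and deposited lengths equalled its merged exons. Of the 60 genes 45 overlap another gene, 15 of them one on the other strand with at least 5% of their CPM. Besides those named above, these 15 include MCFD2 with TTC7A (50.8%), SSR4 with IDH3G (40.9%), SPCS1 with NEK4 (31.2%) and SRPRA with FOXRED1 (27.3%). Overlaps on the same strand, which no strand setting separates, include STT3A with CHEK1 (38.4% of its CPM) and SSR1 with AL139095.2 (24.3%). They also include KDELR2 with DAGLB (15.2%) and SEC31A with THAP9-AS1 (12.5%). Named pseudogenes held 10.8% of the counts of SPCS2 and at most 1.05% of those of 12 others.

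Counts were tested with edgeR 4.0.16 in R 4.3.3 (glmQLFit, glmQLFTest, no covariates), with filterByExpr (minimum count 10, minimum total 15), TMM factors and Benjamini-Hochberg adjustment over all 15790 genes, called under 0.05. CPM use the scaled library sizes. The SE comes from the F statistic, and 95% intervals from it with the fit's degrees of freedom. Any 2 libraries of a group differed by far more than sampling noise (chi-square per degree of freedom of 9.65 or more). The test was tested on simulated data.

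The genes and lists were chosen with earlier results of these data known. The naming rule took every called gene, the gene with the smallest p in each of 10 classes and its paralogs, up to 6 called other secretory genes, and SPOCK1. All other genes of the set are given for completeness of their class. Outside the rule, TMEM208, OSTC and GORASP2 were named for their small p before adjustment and SGTA for its call with offsets. TMEM258 and KRTCAP2 are given beside OSTC. Alternatives were DESeq2 1.42.0, limma-voom (limma 3.58.1), upper-quartile or RLE factors in edgeR, 2 other filters, the replicate block, offsets on GC content and length (natural splines, 5 degrees of freedom), library sizes without SPOCK1, each library left out, libraries 1 and 3 or 2 and 4 alone, and 0.5 counts added to the ratios.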

Additional observations from a re-analysis of the deposited data

Results flagged for a closer look

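In 8 of 142 groups of 4 values checked, 1 library lay far from the other 3 by Dixon's criterion at the 95% level, which chance gives in about 1 group in 20. STT3A was at 207.1 CPM in SPOCK1 library 4, against 179.2 to 181.7 in the others. SEC13 was at 139.9 CPM in SPOCK1 library 3, against 149.9 to 151.4, and still above all controls. SEC24C was at 84.99 CPM in control library 2, against 68.45 to 70.28. SEC31A was at 69.74 CPM in SPOCK1 library 1, against 77.88 to 78.00. ARCN1 was at 245.7 CPM in control library 1, against 209 to 212.8. The log2 ratio of SEC24C to SEC24D was 1.923 in SPOCK1 library 4, against 1.644 to 1.673. The log2 ratio of KDELR1 to KDELR2 was 0.3776 in control library 1, against 0.5441 to 0.5491, and 0.4146 in SPOCK1 library 4, against 0.3188 to 0.328. They fall in 5 of the 8 libraries.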

How the results depend on the processing

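The number of the 60 genes called higher was 1 in the main fit, where 0.247% of all genes tested were. The share of all genes called higher in each other fit is given in brackets. The number was 2 with RLE factors (0.26%) and with a filter at a mean of 1 CPM (0.303%), namely SSR3 and SRPRB. It was 4 with DESeq2 (0.665%) and with no filter beyond 1 count (0.457%), namely SSR3, SRPRB, SEC11C and RPN1. Offsets for GC content and length gave 7 (1.3%). It was 0 with upper-quartile factors (0.247%), with the replicate block (0.196%), in libraries 1 and 3 alone (0.00618%) and in libraries 2 and 4 alone (0.29%). It ranged from 0 to 2 with each library left out (0.149% to 0.409%). The cause of these differences between fits was not tested. The number called lower was 0 in every fit (background 0.798% in the main fit and 1.88% with the offsets). Other secretory genes called higher were 0 in every fit except 1 with GC content and length offsets (background 1.3%). KDELR3 changed sign in libraries 2 and 4 alone, at -0.0343. SSR3 was called in 7 of 11 alternatives beside the left-out libraries. SRPRB ranged from 0.30 to 0.43, RPN1 from 0.23 to 0.36 and SEC11C from 0.37 to 0.59 on the log2 scale over all fits. The log2 fold change of SPOCK1 itself was 10.69 to 11.54 and depends on the prior count, since controls are near 0.

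The replicate numbers are shared by the titles of both groups but nothing says that they mark a shared culture. Deviations of same-numbered libraries had correlations of -0.0739, 0.0317, 0.0277 and 0.0817, and not every library correlated best with its own number, so the libraries were treated as unpaired. With the replicate block 115 genes of all tested were called instead of 165, and the calls among the 60 genes went from 1 to 0. For the paralog ratios, 0 pairs also passed with 0.5 counts added and with each library left out (lowest adjusted p = 0.157, exact permutation), but at least 7 of 11 pairs at the smallest p of 0.0286 would be needed for any to pass, so this is no sign of stability. The pairing by number allows no p under 0.125. At this depth TUSC3 did not reach the minimum count of the main fit.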

Other observations

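HSPA5, the main chaperone of the ER lumen, had a larger fold change than any gene of the set described here. With SPOCK1 it rose 1.72-fold (edgeR adjusted p = 3.42e-05), at 475.3 ± 34.3 CPM in controls and 816.4 ± 36.2 CPM with SPOCK1 (SD, n = 4 each), while the highest fold change among the 59 tested genes was 1.41-fold. The log2 ratio of HSPA5 to SSR3 was 1.24, 1.14, 1.21 and 1.16 in controls and 1.601, 1.56, 1.65 and 1.80 with SPOCK1. The difference in this ratio was 0.47 for SSR3, 0.49 for RPN1, 0.41 for SRPRB and 0.29 for SEC11C. These genes were picked after their values were seen, so the differences are given without a test.

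The RNA of the signal recognition particle had few counts, and its copies are near-identical, so their values are uncertain. RN7SL2 had 53, 76, 45 and 131 counts in controls and 18, 55, 28 and 47 with SPOCK1, a log2 fold change of -0.97 ± 0.37 (SE, edgeR adjusted p = 0.271). RN7SL1 had 0 counts in all 8 libraries, which allows up to 0.0855 CPM in the shallowest.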
